A study of Mus musculus with 8 samples.

Results

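Hedgehog ligands, receptors, transcription factors and their inhibitor were compared between adipose-derived stem cells (ADSCs) grown in 2D and in 3D. The 9 genes were found by symbol among the 24346 genes listed for each library. They were the ligands Shh, Ihh and Dhh, the receptor Ptch1, the signal transducer Smo, the transcription factors Gli1, Gli2 and Gli3, and the ligand-binding inhibitor Hhip. Total RNA came from primary cultures of the gonadal fat of wild-type male BALB/c mice, 12 weeks old. Conventional 2D culture is represented by 4 libraries (mice 2, 3, 4 and 5), and growth in Matrigel, the 3D culture, by 4 others (mice 1, 4, 5 and 7). Each library holds 1 culture of 1 mouse, and mice 4 and 5 gave both kinds. The study grew its 3D cultures with several mixtures of Wnt3a- and R-Spondin1-conditioned medium, and which of them the sequenced libraries had is not given in the sources used here. The values are fragments scaled to transcript length and library depth (FPKM), so that levels can be set side by side between genes. The depth, estimated from the values themselves, was between 14.45 and 17.4 M fragments per library. All levels below are FPKM as deposited. All log2 fold changes are fitted by limma on log2(FPKM + 1) after quantile normalization, a scale on which changes at low FPKM come out too small. Folds given without log2 are ratios of mean FPKM as deposited. Where no 3D library held more than 3 fragments, such a fold is a lower bound. A gene was called at an adjusted p below 0.05 (Benjamini-Hochberg over 18862 genes).

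In the hedgehog pathway, a lipid-modified ligand binds Ptch1 and relieves the block that Ptch1 keeps on Smo. Active Smo, at the primary cilium, stops the processing of Gli2 and Gli3 into shorter forms, so that Gli proteins switch on target genes, among them Gli1, Ptch1 and Hhip. Gli3 serves mainly as a repressor, Gli2 mainly as an activator, and the Gli1 transcript is widely used as a readout of pathway activity. In many organs the ligands are made by epithelium and are read by the stroma around it.

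All 8 libraries are labelled mesenchymal stem cells, but most stromal markers were abundant in 2D and nearly absent in 3D. The summed level of 12 stromal genes was between 2172 and 5495 FPKM in 2D and between 5.21 and 10.2 FPKM in 3D. Pdgfrb, Dcn and Lum were listed at 0 in every 3D library. Lum, however, was at most 0.651 FPKM in 2D and was not called. Twist1, though lower in 3D, still stood between 4.99 and 8.35 FPKM there. The summed level of 12 epithelial genes was between 32.8 and 783 FPKM in 2D and between 2241 and 2702 FPKM in 3D, and Esrp1 and Elf3 were listed at 0 in every 2D library. Of these lists, 11 stromal genes were lower and 11 epithelial genes higher in 3D, beside 20.3% and 21.2% of all genes tested. The highest 2D epithelial sum was that of mouse 4, where Krt7, Krt8, Krt18 and Krt19 were at 74.7, 296, 287 and 125 FPKM. Within 2D, 7 mesothelial genes summed to 891 and 2383 FPKM in mice 3 and 4 but to 1.41 and 0.359 FPKM in mice 2 and 5. In 3D they summed to between 3.68 and 30.6 FPKM. The part of these markers in the results below was not tested. In bulk RNA, fewer cells of a type and less RNA per cell cannot be told apart.

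Among the 8 members that could be tested, Ptch1 rose in 3D while Smo, Gli2 and Gli3 fell. Gli3 fell about 19.6-fold and Gli2 at least 19.8-fold in mean FPKM. The ligands were listed at 0 or rested on at most 13.2 fragments in any library, and Gli1 was listed at 0 in every 3D library. The count of 1 member higher and 3 lower stands beside 21.2% of all tested genes that were higher and 20.3% that were lower, or 41.5% in either direction. In these 4 genes no 2D library overlapped with a 3D library, which held for 23.6% of all tested genes with 3D higher, 21.8% with 3D lower and 45.5% in either direction. The members' share is near this background, and the account below is of single genes.

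**Figure D1:**
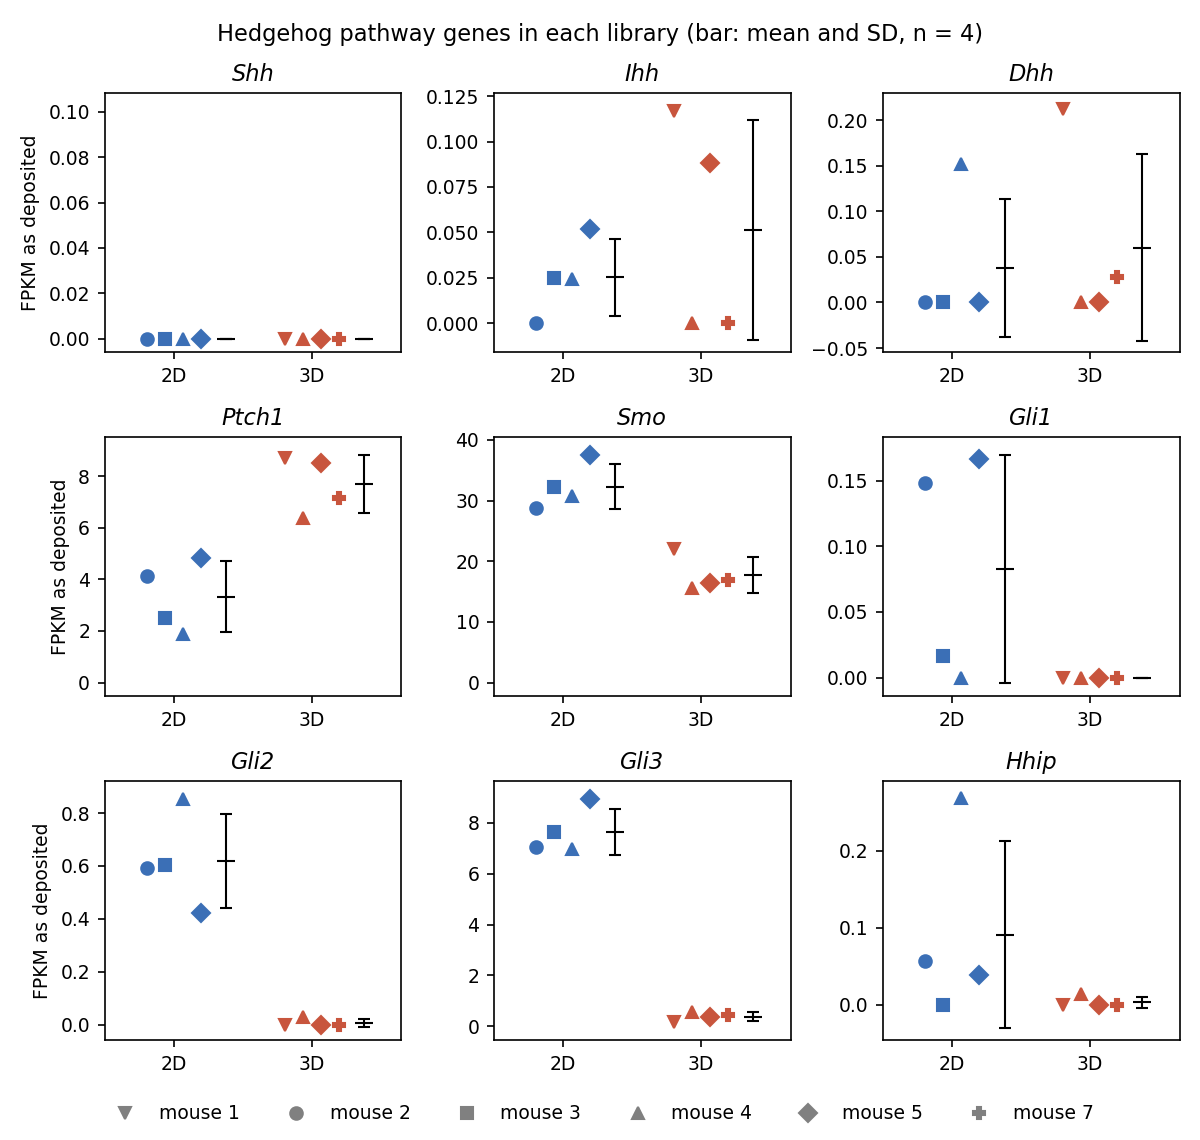
FPKM as deposited (y axis, a scale for each gene) of the 9 members in the 4 2D libraries (blue) and the 4 3D libraries (red). Symbols mark the mouse, and the black bar gives the mean and SD of each culture (n = 4). The 2D and 3D points do not overlap for Ptch1, Smo, Gli2 and Gli3.

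Shh, the ligand of limb, gut and neural tube patterning, was listed at 0 in all 8 libraries and was not tested. At its length of 2847 nt, 3 fragments would give between 0.0606 and 0.0729 FPKM, so that a lower level could have been missed. Shh lies on chromosome 5 (28456815 to 28467256, GRCm38).

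Ihh, the ligand of growing cartilage, lies on chromosome 1 (74945315 to 74951672). It stood at 0, 0.0250, 0.0244 and 0.0517 FPKM in 2D mice 2, 3, 4 and 5 and at 0.117, 0, 0.0881 and 0 FPKM in 3D mice 1, 4, 5 and 7. The highest of these values corresponds to about 4.23 fragments, and the cultures overlapped. Its log2 fold change was 0.01 (95% interval -0.08 to 0.11, limma's adjusted p = 0.797).

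Dhh, the ligand made by Sertoli and Schwann cells, lies on chromosome 15 (98891152 to 98898540). It was at 0.152 FPKM in 2D mouse 4 and at 0 in the other 2D libraries. In 3D it was at 0.212 FPKM in mouse 1, at 0.0282 FPKM in mouse 7 and at 0 in mice 4 and 5. The cultures overlapped, and the log2 fold change was 0.01 (95% interval -0.12 to 0.15, limma's adjusted p = 0.872). Dhh shares part of its span with Rhebl1 on the same strand, which was between 0.988 and 3.29 FPKM in 2D and between 0.313 and 0.728 FPKM in 3D, so the few Dhh fragments are uncertain. Of the Schwann cell markers, Sox10 was at most 0.0984 FPKM in any library, and Foxd3 and Cdh19 were listed at 0 in all of them. The part of either cell type in the Dhh values was not tested. The Sertoli cell markers Amh, Rhox5 and Dmrt1 were at most 0.8003 FPKM, and Fshr was listed at 0 in all 8 libraries.

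Ptch1, the receptor that binds the ligands and is itself a target of the pathway, rose in 3D. It lies on chromosome 13 (63508328 to 63573598). In 2D it was at 4.12, 2.50, 1.87 and 4.84 FPKM in mice 2, 3, 4 and 5. In 3D it was at 8.71, 6.36, 8.50 and 7.16 FPKM in mice 1, 4, 5 and 7. Every 3D library thus lay above every 2D library, with 2D mouse 4 lowest and 3D mouse 1 highest. The mean was 3.34 ± 1.38 FPKM in 2D and 7.68 ± 1.12 FPKM in 3D (SD, n = 4 each), a ratio of 2.30. The log2 fold change was 0.85 (SE 0.27, adjusted p = 0.0363 by limma). Within mouse 4, Ptch1 went from 1.87 to 6.36 FPKM, and within mouse 5 from 4.84 to 8.50 FPKM.

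The call for Ptch1 was close to the threshold. It was lost without 2D mouse 3 or 4 (adjusted p of 0.0857 and 0.0614 from limma) and without 3D mouse 1, 4, 5 or 7 (0.0767, 0.0516, 0.0887 and 0.0672), and held without 2D mouse 2 or 5 (0.0358 and 0.0217). Its log2 fold change stayed between 0.65 and 1.01 in these 8 fits.

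Smo, the membrane protein that Ptch1 holds inactive, was the most abundant member in every library and fell in 3D. It lies on chromosome 6 (29735503 to 29761365). It was at 28.7, 32.3, 30.8 and 37.4 FPKM in 2D mice 2, 3, 4 and 5 and at 22.0, 15.6, 16.3 and 16.9 FPKM in 3D mice 1, 4, 5 and 7. The lowest 2D library, mouse 2, lay above the highest 3D library, mouse 1. The mean was 32.3 ± 3.72 FPKM in 2D and 17.7 ± 2.90 FPKM in 3D (SD, n = 4 each), and the log2 fold change was -0.68 (SE 0.13, adjusted p = 0.00426 by limma). Leaving out each library in turn gave adjusted p-values between 9.6e-04 and 0.0148.

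The opposite shifts of both receptor genes changed their proportion within a library. The ratio of Ptch1 to Smo FPKM was 0.144, 0.0774, 0.0608 and 0.129 in 2D mice 2, 3, 4 and 5, and 0.395, 0.407, 0.520 and 0.423 in 3D mice 1, 4, 5 and 7. Its mean was 0.103 ± 0.0399 in 2D and 0.436 ± 0.0568 in 3D (SD, n = 4 each). A ratio within a library does not depend on a common scale factor, but it does not show which gene changed. The sum of both was between 32.7 and 42.3 FPKM in 2D and between 22.0 and 30.7 FPKM in 3D, and was not tested.

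**Figure D2:**
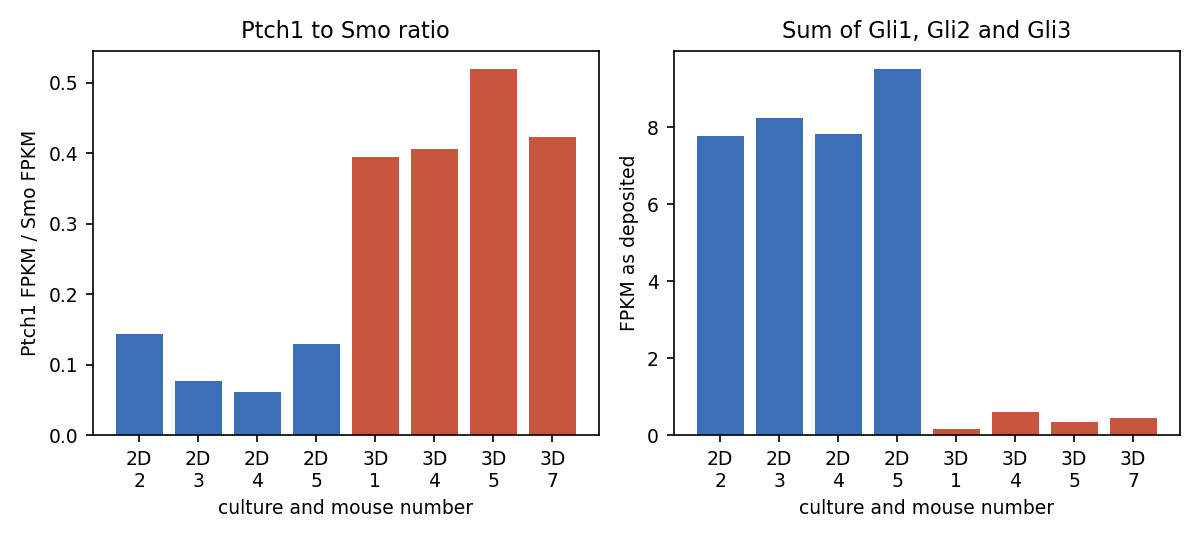
Left, the ratio of Ptch1 to Smo FPKM in each library, and right, the summed FPKM of Gli1, Gli2 and Gli3, with the culture and the mouse number on the x axis (blue 2D, red 3D). The ratio is at least 0.395 in 3D and at most 0.144 in 2D, and the Gli sum is at least 7.77 FPKM in 2D and at most 0.6002 FPKM in 3D.

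Gli3, which acts largely as a repressor of hedgehog targets when the pathway is off, was the most abundant Gli gene in every library and fell in 3D. It lies on chromosome 13 (15463235 to 15730026). It was at 7.03, 7.62, 6.97 and 8.92 FPKM in 2D mice 2, 3, 4 and 5 and at 0.174, 0.572, 0.357 and 0.458 FPKM in 3D mice 1, 4, 5 and 7. The 3D values rest on about 20.8 to 72.9 fragments each, above the detection limit of 3 fragments in all 4 libraries. The 2D libraries differed little among themselves and all lay far above the 3D libraries. The mean was 7.63 ± 0.903 FPKM in 2D and 0.390 ± 0.169 FPKM in 3D (SD, n = 4 each), with a log2 fold change of -2.75 (SE 0.15, adjusted p = 9.3e-06 by limma). The fold of 19.6 in mean FPKM is larger than this because the added 1 FPKM compresses the low 3D values.

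Gli2, the main activator among the Gli factors, was low in 2D and fell to the detection limit in 3D. It lies on chromosome 1 (118834132 to 119053619). It was at 0.594, 0.603, 0.853 and 0.424 FPKM in 2D mice 2, 3, 4 and 5, or about 46.3 to 98.5 fragments. In 3D it was listed at 0 in mice 1, 5 and 7 and at 0.0282 FPKM, about 2.92 fragments, in mouse 4. All 3D libraries were thus at or under 3 fragments, and Gli2 was at least 19.8-fold lower in 3D than its 2D mean of 0.618 ± 0.177 FPKM (SD, n = 4). The bound is that mean over the highest FPKM that 3 fragments give in a 3D library. The fitted log2 fold change was -0.81 (SE 0.05, adjusted p = 2.2e-05 by limma).

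Gli1, itself switched on by hedgehog signalling, was barely detected. It lies on chromosome 10 (127329882 to 127341974). In 2D it was at 0.148 and 0.167 FPKM in mice 2 and 5, about 10.1 and 11.1 fragments, but at 0.0161 FPKM in mouse 3 and 0 in mouse 4. It was listed at 0 in all 4 3D libraries, where 3 fragments give at most 0.0512 FPKM. The 2D library of mouse 4 therefore overlapped with the 3D libraries, and Gli1 was not called (log2 fold change -0.17, 95% interval -0.35 to 0.02, limma's adjusted p = 0.142). Gli1 overlaps Arhgap9 on the opposite strand, which was at most 0.171 FPKM.

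As shares of the Gli sum, Gli3 held between 89.1% and 93.8% in 2D, Gli2 between 4.46% and 10.9%, and Gli1 at most 1.91%. In 3D, Gli3 held between 95.3% and 100% of a sum of between 0.174 and 0.6002 FPKM. The 3D libraries thus held little Gli transcript of any kind beside a Smo level of at least 15.6 FPKM.

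Hhip, a membrane protein that binds and withholds the ligands and is a pathway target, was low in 2D, and no 3D library held more than 3 fragments of it. It lies on chromosome 8 (79965851 to 80058006). It was at 0.0575, 0, 0.269 and 0.0388 FPKM in 2D mice 2, 3, 4 and 5, or about 8.77, 0, 42.5 and 5.79 fragments. In 3D it was listed at 0 in mice 1, 5 and 7 and at 0.0138 FPKM in mouse 4, about 1.95 fragments. 2D mouse 4 stood highest and 2D mouse 3 overlapped with the 3D libraries, and the log2 fold change was -0.13 (95% interval -0.28 to 0.02, limma's adjusted p = 0.136). Without 2D mouse 3 the adjusted p was 0.0481. Of the target genes among the members, only Ptch1 was thus detected well in 3D, and Gli1 and Hhip were at or under 3 fragments there.

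**Figure D3:**
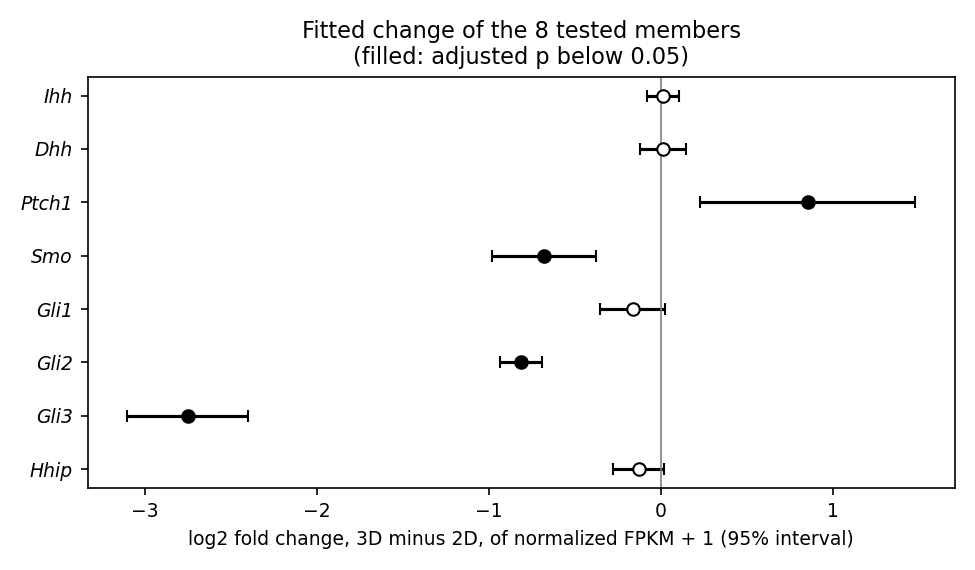
Fitted log2 fold change (x axis, 3D minus 2D, of normalized FPKM + 1) of the 8 tested members with its 95% interval. Filled points have an adjusted p below 0.05. Ptch1 lies above 0, and Smo, Gli2 and Gli3 lie below 0.

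When the mouse entered the model as a block, so that mice 4 and 5 carry the contrast with 1 residual degree of freedom, 0 of 8 members passed. Limma's adjusted p was then 0.276 for Ptch1, 0.123 for Smo, 0.111 for Gli2 and 0.114 for Gli3, and 3 of the 8 had an unadjusted p below 0.05. Over all 18862 genes 0 passed in this fit, against 5216 at an unadjusted p below 0.05.

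**Figure D4:**
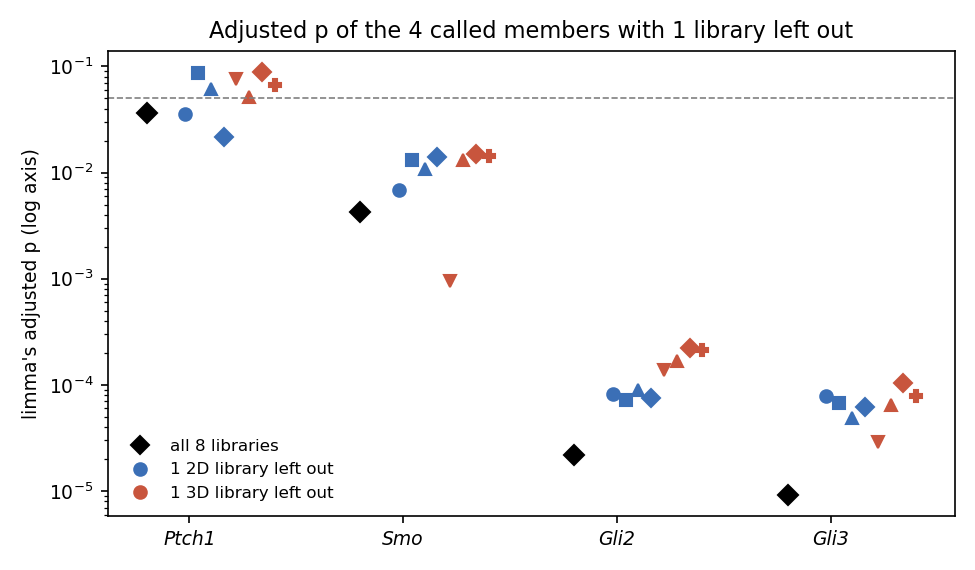
Limma's adjusted p (y axis, log scale) of the 4 called members with all libraries (black) and with 1 library left out (blue 2D, red 3D, symbols by mouse as in the plot of the members). The dashed line marks 0.05. Ptch1 crosses it in 6 of 8 cases, and Smo, Gli2 and Gli3 stay below it.

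Promoter sequences are shown for Ptch1, Gli2 and Smo, called members whose 250 bases before the RefSeq start lie outside annotated exons. The Ptch1 window precedes a start inside the gene's full span. Of the 9 members, 7 had a window in RefSeq (GRCm38.p6). Each is printed 5′ to 3′ on the strand of the gene, and capitals mark CCACCC or its reverse complement GGGTGG, the core of the Gli binding site GACCACCCA.
Ptch1 (chr13:63565736-63565985, minus strand): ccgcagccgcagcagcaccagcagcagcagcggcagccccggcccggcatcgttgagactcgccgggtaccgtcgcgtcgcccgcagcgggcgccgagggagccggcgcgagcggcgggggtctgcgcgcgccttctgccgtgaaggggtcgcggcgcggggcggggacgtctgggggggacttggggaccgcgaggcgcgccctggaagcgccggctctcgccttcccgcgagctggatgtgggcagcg
Gli2 (chr1:119053620-119053869, minus strand): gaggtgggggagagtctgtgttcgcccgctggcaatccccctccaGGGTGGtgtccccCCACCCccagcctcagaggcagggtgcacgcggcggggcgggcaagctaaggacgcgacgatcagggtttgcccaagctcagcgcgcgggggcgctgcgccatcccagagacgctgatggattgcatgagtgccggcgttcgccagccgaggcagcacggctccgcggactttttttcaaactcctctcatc
Smo (chr6:29735247-29735496, plus strand): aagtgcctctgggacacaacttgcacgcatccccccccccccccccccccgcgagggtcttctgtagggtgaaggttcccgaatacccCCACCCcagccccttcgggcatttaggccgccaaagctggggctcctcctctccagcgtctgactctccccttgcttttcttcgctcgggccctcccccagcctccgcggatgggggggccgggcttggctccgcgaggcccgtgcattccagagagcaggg
The full 9-base site, on either strand, was in 0 of the 7 member windows and in 0.225% of 32851 windows of all genes. The core was in 6 of the 7, against 28.1% of all windows, and Ptch1 was the exception. The Gli2 window held 2 cores, which began 205 and 192 bases before the start, and the Smo window held 1, at 162 bases. All 7 member windows were rich in G and C, from 59.6% for Dhh to 78.4% for Ptch1, with 67.2% for Gli2 and 68.4% for Smo. The median over all windows was 52.4%. The core consists largely of C, or of G on the other strand, and its share over all windows was not matched for this content. The count of 6 of 7 is therefore not read as a result about the members. These matches describe letters and not binding.

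The other genes of the pathway were read from 5 lists of 67 genes in all, of which 66 were tested. Of these, 16 were higher and 15 lower in 3D, and the median log2 fold change was -0.02, against 0.00 over all genes tested. These counts are near the 21.2% of all tested genes that were higher and the 20.3% that were lower. The blocked fit called 0 of these 66 genes, against 25 at an unadjusted p below 0.05. Whether the lists differ from each other was not tested.

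**Figure D5:**
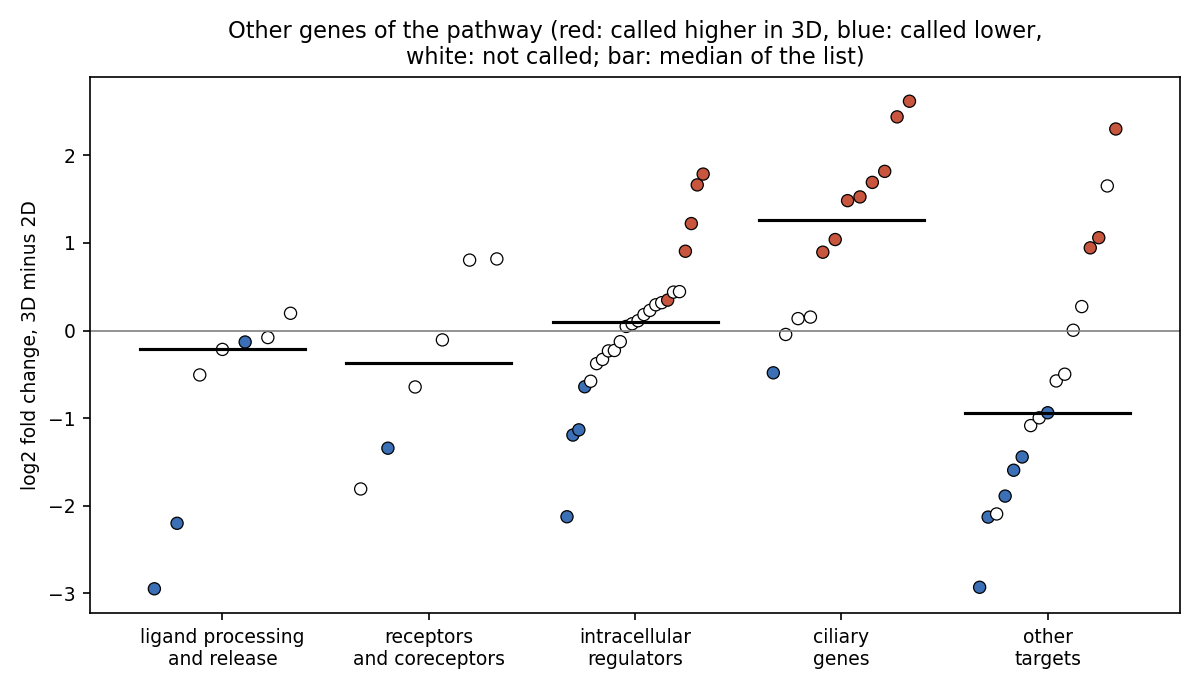
Fitted log2 fold change (y axis, 3D minus 2D) of the 66 tested genes in 5 lists, each ordered by its change. Red points are called higher and blue points lower at an adjusted p below 0.05, white points are not called, and the bar is the median of the list. The median is 1.26 for the ciliary genes and -0.94 for the other targets.

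Among 7 genes of ligand processing and release, 3 were lower in 3D and 0 higher, where 20.3% of all genes tested were lower. The median log2 fold change was -0.22, and -0.12 without 2D mouse 4. Disp1, which frees the lipid-modified ligand from the producing cell, fell from 19.2 ± 5.66 to 1.78 ± 0.661 FPKM (SD, n = 4 each), a log2 fold change of -2.95 (SE 0.24, adjusted p = 6.7e-05 by limma). Hhat, the enzyme that attaches palmitate to the ligands, fell from 5.34 ± 1.22 to 0.565 ± 0.282 FPKM (SD, n = 4 each). Scube2, a secreted protein that carries the ligand away, was at most 0.146 FPKM in 2D and 0.0195 FPKM in 3D, and its call was lost without the intensity trend (limma's adjusted p = 0.0510).

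Among 6 receptors and coreceptors, Boc alone was called, and it was lower in 3D. Of all tested genes, 41.5% were called in either direction. Boc, which helps the ligand reach Ptch1, was at 4.80 ± 0.791 FPKM in 2D and 1.85 ± 1.26 FPKM in 3D (SD, n = 4 each), with a log2 fold change of -1.34 (SE 0.26, adjusted p = 0.00483 by limma). The 3D library of mouse 1 stood at 3.72 FPKM and the other 3D libraries at most at 1.498 FPKM. Cdon and Gas1, the coreceptors with a similar role, were not called, but without 3D mouse 1 Cdon was lower, with a log2 fold change of -1.09 and an adjusted p of 0.0413 from limma.

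Among 24 intracellular regulators, 5 were higher and 4 lower in 3D, near the 21.2% and 20.3% of all genes tested. The median log2 fold change was 0.09. On the values as deposited, 7 were higher and 8 lower, with a median of -0.10. The higher genes numbered 3 without 2D mouse 4 or 3D mouse 7, and the median lay between 0.02 and 0.16 with each library left out. Gpr161, a ciliary receptor that holds the pathway down, fell from 6.11 ± 0.807 to 0.867 ± 0.196 FPKM (SD, n = 4 each), a log2 fold change of -2.12 (SE 0.16, adjusted p = 4.6e-05 by limma). Kif7, a kinesin of the cilium tip that controls Gli proteins, fell from 2.58 ± 0.0803 to 0.880 ± 0.198 FPKM, and Spop, an adaptor for the breakdown of Gli proteins, from 51.7 ± 5.88 to 19.7 ± 3.83 FPKM. Stk36, a homologue of the fly kinase fused, rose from 0.971 ± 0.322 to 7.08 ± 1.84 FPKM, and Iqce, which anchors the Evc complex at the cilium base, from 2.41 ± 0.506 to 11.3 ± 2.16 FPKM. Prkacb, a catalytic subunit of protein kinase A, rose from 22.3 ± 0.766 to 36.8 ± 8.75 FPKM.

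Efcab7, the partner of Iqce, rose from 1.06 ± 0.266 to 5.22 ± 3.31 FPKM (SD, n = 4 each, limma's adjusted p = 0.0259), but its adjusted p was 0.0597, 0.0589, 0.0547 and 0.0556 without 2D mouse 3, 4 or 5 or 3D mouse 7. The kinase genes Csnk1d and Dyrk2, named after their values were seen, completed the called regulators with adjusted p-values of 0.0421 and 0.0487 from limma. Csnk1d turned to a log2 fold change of -0.03 on the values as deposited. Its call was lost in 7 of the 8 fits that left out a library, the exception being 2D mouse 3, and that of Dyrk2 in 6, the exceptions being 2D mouse 4 and 3D mouse 1. Sufu, which binds and restrains Gli proteins, was at 6.94 ± 1.10 FPKM in 2D and 5.93 ± 0.783 FPKM in 3D, with an adjusted p of 0.0670 from limma. Sufu passed as lower without the intensity trend (0.0341), among genes whose mean reached 1 FPKM (0.0391) and without 2D mouse 4 (0.0444).

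Of 12 ciliary genes, 8 were higher and 1 lower in 3D, beside 21.2% and 20.3% of all genes tested, and the median log2 fold change was 1.26. The blocked fit called 0 of these 12 genes. The primary cilium is where Smo and the Gli proteins meet. Tctn1, of the gate at the cilium base, rose from 3.16 ± 1.29 to 24.7 ± 1.67 FPKM (SD, n = 4 each), a log2 fold change of 2.62 (SE 0.19, adjusted p = 3.9e-05 by limma). Dync2h1, the motor that carries cargo back from the tip, rose from 2.02 ± 0.358 to 17.2 ± 5.17 FPKM. Ift88 and Ift122, of the intraflagellar transport trains, rose from 2.90 ± 0.871 to 14.2 ± 2.99 FPKM and from 5.11 ± 1.16 to 20.01 ± 5.74 FPKM. Tulp3, which brings receptors such as Gpr161 into the cilium, fell from 26.7 ± 2.43 to 17.4 ± 3.23 FPKM (limma's adjusted p = 0.0229), and its adjusted p was 0.0543, 0.0602, 0.0604 and 0.0541 without 2D mouse 2 or 5 or 3D mouse 5 or 7. Genes of motile cilia share several of these components, and the list does not separate the kinds of cilium.

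Of 17 tested genes among other reported targets, 6 were lower and 3 higher in 3D, beside 20.3% and 21.2% of all genes tested. The median log2 fold change was -0.94, but -0.44 without 2D mouse 3 and -0.48 without 2D mouse 4, and with each library left out between 4 and 6 genes were lower. On the values as deposited the counts were 5 and 2. Nkx2-2 was listed at 0 in every library. Foxf2, a forkhead factor of the gut stroma, was between 0.964 and 4.35 FPKM in 2D and listed at 0 in 3D throughout, which makes it at least 36.3-fold lower. Foxc2, a forkhead factor of mesenchyme, was at 13.03 and 13.9 FPKM in 2D mice 2 and 5 and at 2.33 and 3.47 FPKM in mice 3 and 4. With no 3D library above 3 fragments, it was at least 107-fold lower there. Ccnd2, a cyclin of the G1 phase, fell from 339 ± 41.8 to 64.9 ± 21.5 FPKM, and Rab34, a small GTPase needed for cilium formation, from 85.1 ± 11.0 to 22.3 ± 2.79 FPKM (SD, n = 4 each). Foxf1 and Foxl1, forkhead factors of the stroma named after their values were seen, were the remaining lower genes, with adjusted p-values of 0.0414 and 0.0378 from limma. Each lost its call in 6 of the 8 fits that left out a library, Foxf1 holding without 2D mouse 4 or 5 and Foxl1 without 2D mouse 3 or 4.

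In the other direction, Bcl2, which protects from cell death, rose from 4.97 ± 0.782 to 11.6 ± 1.70 FPKM, a log2 fold change of 0.94 (SE 0.16, adjusted p = 0.00253 by limma). Jag2, a Notch ligand, was at most 0.142 FPKM in 2D and at 14.7, 5.57, 1.83 and 2.26 FPKM in 3D mice 1, 4, 5 and 7. Ccnd1, another G1 cyclin and the remaining higher gene, was named after its values were seen. Its cultures overlapped, and on the values as deposited its adjusted p was 0.140 from limma. Many of these genes also answer to other pathways.

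The genes most like the 3 most abundant members were found by the mean absolute difference of their centred log2 profiles over the 8 libraries, among 12580 genes whose mean reached 1 FPKM. For Smo they were Rab43, Osbpl1a and Nr3c1, at mean differences of 0.06, 0.07 and 0.08. For Ptch1 they were Rnpepl1, Mdm1 and Atg4d, at 0.10, 0.11 and 0.11, and for Gli3 Sec23a, Ssc5d and Trnp1, at 0.08, 0.10 and 0.11. Sec23a, of the coat of vesicles that leave the endoplasmic reticulum, was at 86.1 ± 11.0 FPKM in 2D and 10.8 ± 1.59 FPKM in 3D (SD, n = 4 each).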

How the data were processed

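RNA from 4 2D and 4 3D cultures of mouse ADSCs was depleted of ribosomal RNA and sequenced from directional paired-end libraries. The authors removed adapters and reads of low quality with FASTX_Trimmer and BBMap, mapped the rest with TopHat (genome mm10 per the labels) and deposited FPKM values per gene from Cufflinks, without read counts. Whether Cufflinks used the strand is not given in the sources used here, so genes that overlap on opposite strands may share reads. The deposited values differ in their upper quartiles and maxima and were therefore quantile normalized here, as the methods of the study describe, over the 18862 genes above 0 in at least 1 library, with values of 0 kept at 0. Linear models on log2(FPKM + 1) were fitted with limma 3.58.1 (R 4.3.3, intensity trend, no covariates). Library overlap was judged on the deposited values. What 1 fragment is worth was read off the low FPKM of 875 single-transcript genes of at least 3000 nt (GENCODE M21), which gave the depth of each library, and between 64.6% and 79.5% of the low values lay within 0.1 of a whole multiple. Limits of 3 fragments and fragment numbers are approximate, use the longest coding transcript and cover counting error only.

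By their labels, mice 4 and 5 each gave a 2D and a 3D library, so the mouse pairs them. Across 12583 genes, how far a 2D library lay from the 2D mean correlated with the same quantity in 3D at -0.05 in mouse 4 and at -0.11 in mouse 5. The alternatives were no quantile normalization, no trend, only genes whose mean reached 1 FPKM, and 0.1 in place of 1 as pseudocount. Others were a block for the mouse (fixed or random), a fit to mice 4 and 5 alone without a block, and leaving out each library in turn. The members, lists and tests were chosen with earlier results of these data known. The members are named, as are up to 4 genes per list and direction with the largest called change and no overlap, and the 3 genes most like each of the 3 most abundant members. Besides the marker lists given in the report, endothelial, macrophage, adipocyte and epididymal genes were summed. The values of some listed genes are not reported here.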

Additional observations from a re-analysis of the deposited data

Results flagged for a closer look

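In 58 groups of 4 libraries, of the tested members and of the pathway genes named, 8 held a library whose gap to its nearest neighbour was large against the range of the group (Dixon's ratio above its 95% critical value). Chance flags about 1 group in 20 where values are normally distributed. That rate does not hold where the other libraries are all at 0, since any value above 0 is then flagged. For Dhh, 2D mouse 4 stood at 0.152 FPKM with the others at 0, and 3D mouse 1 at 0.212 FPKM with the others at 0.0282 FPKM or less. For Gli2 and Hhip, 3D mouse 4 stood at 0.0282 and 0.0138 FPKM with the others at 0, and for Scube2, 3D mouse 5 at 0.0195 FPKM with the others at 0. For Foxc2, 3D mouse 1 stood at 0.0520 FPKM with the others at 0. These 4 values rest on 3 fragments or fewer. Disp1 was at 2.76 FPKM in 3D mouse 5 and between 1.37 and 1.56 FPKM in the other 3D libraries, and Efcab7 at 1.46 FPKM in 2D mouse 2 and between 0.907 and 0.952 FPKM in the other 2D libraries.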

How the results depend on the processing

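Smo, Gli2 and Gli3 kept their direction under every alternative that tested them and lost their call only with the mouse as a fixed block, where their log2 fold changes were -0.88, -0.80 and -2.73. Ptch1 kept its direction, with a log2 fold change of 0.86 and no call both with this block and with only mice 4 and 5. It was between 0.65 and 1.01 with each library left out. With the block, 0 members, 0 pathway genes and 0 genes overall passed in either direction, against 5216 genes with an unadjusted p below 0.05, and the block has 1 residual degree of freedom. The fit to only mice 4 and 5 had fewer samples and did not pair the libraries by mouse. In it 0 members were higher, 7 pathway genes were higher and 7 lower, and 1490 genes overall were higher and 1122 lower. With each library left out, between 0 and 1 members were higher and between 3 and 4 lower. The pathway genes then numbered between 14 and 16 higher and between 11 and 16 lower. The log2 fold changes of Ihh and Dhh, both near 0, turned to -0.0064 and -0.089 with the block and with only mice 4 and 5, and ranged from -0.0076 to 0.039 and from -0.029 to 0.056 with each library left out. Hhip, between -0.18 and -0.066, passed without 2D mouse 3. The mouse as a random effect, no trend, the values as deposited and a pseudocount of 0.1 changed no call of a member. The pseudocount of 0.1 moved the log2 fold changes of Gli1, Gli2, Gli3 and Hhip to -0.95, -3.03, -4.29 and -0.83. Ihh, Dhh, Gli1, Gli2 and Hhip did not reach the mean of 1 FPKM that one alternative required. A smaller pseudocount compresses low values less, and the cause of the other shifts was not tested. Shh at 0 and Ihh at a few fragments per library leave a difference not detectable at this depth.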

Other observations

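Several genes of the pathway divided the 2D libraries, and these genes were picked after their values were seen, without a test. Gas1, a coreceptor for hedgehog ligands, was at 176 and 90.8 FPKM in 2D mice 3 and 4 but at 0.585 and 4.42 FPKM in mice 2 and 5. Hand2, a transcription factor of limb and gut mesenchyme, was at 21.4 and 12.03 FPKM in mice 3 and 4 and at 0.0283 and 0.0570 FPKM in mice 2 and 5. Bmp4, a signal often found beside hedgehog ligands, was at 9.29 and 10.3 FPKM in mice 3 and 4 and listed at 0 in mice 2 and 5. Ptch1, Gli1, Foxc2 and Foxl1 went the other way. Foxl1, a forkhead factor of the stroma, was at 1.39 and 1.49 FPKM in mice 2 and 5 and at 0.222 and 0.357 FPKM in mice 3 and 4. The same 2D libraries of mice 3 and 4 held the mesothelial transcripts, at 891 and 2383 FPKM in sum, and the part of these in the split was not tested.

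The 3D library of mouse 1 stood above the other 3D libraries for some surface and secreted regulators, also picked after their values were seen. Its title names a 3D culture, but its description lacks the 3D tag that the other 3D libraries carry, and what stands there instead is not explained in the sources used here. Gpc3, a glypican that competes with Ptch1 for the ligands, was at 7.09 FPKM in mouse 1 and at most 0.478 FPKM in the others. Scube1, a relative of Scube2, was at 1.06 FPKM against at most 0.0480 FPKM, and Cdon at 14.6 FPKM against at most 5.01 FPKM. Sfrp1, a secreted Wnt inhibitor, was at 18.8 FPKM in mouse 1 and at most 0.177 FPKM in the others.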
